A study of Mus musculus with 2 samples.

Results

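The nuclear genes of oxidative phosphorylation were described in accessible chromatin of GFP-positive cells sorted from Hb9::GFP mouse embryos. Members were the protein-coding genes of the mm10 chromosomes whose symbols start with Ndufa, Ndufb, Ndufc, Ndufs or Ndufv, with Sdha to Sdhd, with Uqcr, with Cox4 to Cox8 or with Atp5. This rule took 100 of 21883 protein-coding genes. By name, 41 belong to complex I, 4 to complex II, 8 to complex III, 18 to complex IV and 17 to complex V. The other 12 are the assembly factors Ndufaf1 to Ndufaf8 and Sdhaf1 to Sdhaf4, which the prefixes take in and which were kept as a class of their own.

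The sorted cells came from C57/Bl6 embryos at embryonic day 10.5, and the labels name them spinal motor neurons. The transgene marks cells in which the promoter of Hb9 is active, the gene now called Mnx1, which encodes a homeodomain factor needed for motor neuron identity. There was 1 group of 2 replicates, deposited as 1 pooled list of peaks. The spread between replicates is therefore unknown, and there is no second condition to compare with. Motor neuron markers had an accessible site at the start of 6 of 6 genes (Mnx1, Isl1, Isl2, Lhx3, Chat and Slc18a3). Blood markers had one at 1 of 5 genes (Spi1, with Gata1, Klf1, Ptprc and Alas2 without), muscle markers at 2 of 3 and endothelial markers at 1 of 3. Over all protein-coding genes the share with such a site was 66.6%, and these lists hold few genes. The blood marker Spi1 had 10.98-fold over background with 128 reads. In fold this was as high as the strongest motor neuron marker, Isl1, with 10.94-fold, which had 244 reads. The muscle and endothelial markers reached no more than 3.52-fold, at Myod1. The other motor neuron markers had 7.42-fold (Mnx1), 7.1-fold (Isl2), 5.1-fold (Slc18a3), 4.01-fold (Lhx3) and 3.08-fold (Chat). Their reads, in the same order, were 406, 120, 57, 38 and 34. Chat thus lay below Myod1 in fold but above it in reads, with 34 against 25. The part of other cell types in the results below was not tested. In a pooled population, a site open to a small extent in all cells and a site open in a few cells cannot be told apart.

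Oxidative phosphorylation is carried out by 5 protein complexes of the inner mitochondrial membrane. Complexes I and II pass electrons from NADH and succinate to ubiquinone, complex III passes them to cytochrome c and complex IV to oxygen. Complexes I, III and IV pump protons, and complex V, the ATP synthase, lets them back to make ATP. All subunits of complex II and most subunits of the other complexes are encoded in the nucleus, and neurons depend heavily on the pathway. NRF1, GABP (an ETS factor) and YY1 are transcription factors known to act at promoters of these genes.

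Nearly all members were accessible at their start. Each entry of the list is a summit with the authors' fold, which is the read pileup at the summit over the caller's local background. An entry was counted as a start entry when its summit lay within 1 kb of an annotated start. For 18 members the promoter table gave no strand, and an entry within 1 kb of either gene end was counted. Among these were Atp5a1, Cox4i1, Cox4i2, Ndufa4l2, Ndufaf6, Ndufs1, Sdhc and Uqcrc2. A start entry was present at 93 of 100 members (95% exact binomial interval 86.1 to 97.1%, which takes genes as independent and covers no replicate error). Over all 21883 protein-coding genes, members included, the same count gave 66.6%. Members are short genes, with a median span of 7336 bp, and among protein-coding genes no longer than 12999 bp, the third quartile of the members, the share was 50.5%. Over the whole span with 1 kb to either side, 95 members had an entry, against 75.9% of all genes. Since the groups are lists of genes in 1 pooled sample, these shares are descriptions with no test.

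At members with a start entry, the strongest one had a median of 9.11-fold, with the middle 50% between 7.17 and 10.89-fold. The median over all 14570 genes with a start entry was 8.32-fold, with the middle 50% between 5.91 and 10.44-fold. An entry of 10-fold or more was found at 35 of 100 members, against 19.9% of all genes. These shares include genes without a start entry. Among genes with one, the counts were 35 of 93 members and 4364 of 14570 genes. Reads at the summit had a median of 114 in members and 99 in all genes. Reads are the pileup solved from the deposited fold and −log10 p. The counting interval of a fold, given below in brackets as 95% Poisson limits of the reads with the background held fixed, lay wholly above 8.32-fold at 37 of 93 members and wholly below it at 16. Over all genes with a start entry these shares were 29.9% and 31.7%. The remaining 40 members could not be told from the all-gene median at this depth.

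**Figure D1:**
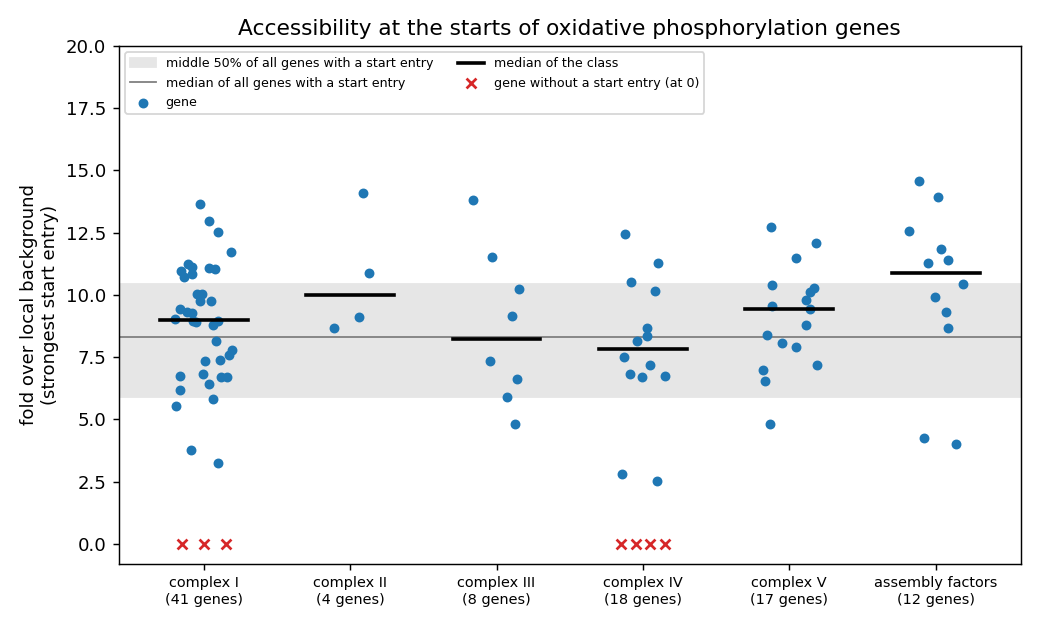
Fold over local background of the strongest start entry of each gene (points, vertical axis), by complex (horizontal axis), with class medians as black bars, and genes without a start entry drawn as crosses at 0. The grey band and line give the middle 50% and the median of all protein-coding genes with a start entry, and complex IV holds 4 of the 7 crosses.

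The promoters of the members were searched for short motifs of factors known in the pathway, and NRF1 letters were the most frequent of the 3. RefSeq promoter windows of the GRCm38.p6 assembly, reaching from 250 bases before to 50 after a start, were matched for 82 of 100 members and 17491 protein-coding genes. The search covered both strands for GCGCNTGCG (NRF1), CCGGAAG (ETS factors such as GABP), AANATGGCG (YY1) and GGGCGG (Sp1 and other KLF-type factors), and a gene counted once however many matches it had, in any of its windows where it had several starts (Atp5c1, Atp5d, Atp5j, Ndufa5 and Ndufa7 among the members). Matches on opposite strands of the palindromic NRF1 element overlap each other. Among the 79 members with a start entry, NRF1 letters were present at 28 (35.4%), against 14.2% of the 11639 genes with a strand and a start entry. ETS letters were present at 22 (27.8% against 18.2%) and YY1 letters at 12 (15.2% against 5.22%). With only the 250 bases before the start searched, the shares fell to 22.8% against 11.7% for NRF1 and to 5.06% against 2.21% for YY1. In the whole window, at least 1 of these 3 motifs was present in 63.3% of members and in 32.3% of all genes with a start entry. Sp1 letters went the other way, with 48.1% of members against 69.2%. Over all promoters, with or without a start entry, the Sp1 shares were 47.6% and 49.2%, while those of NRF1 were 34.1% and 9.68%. A match is a description of the sequence and not a bound site.

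**Figure D2:**
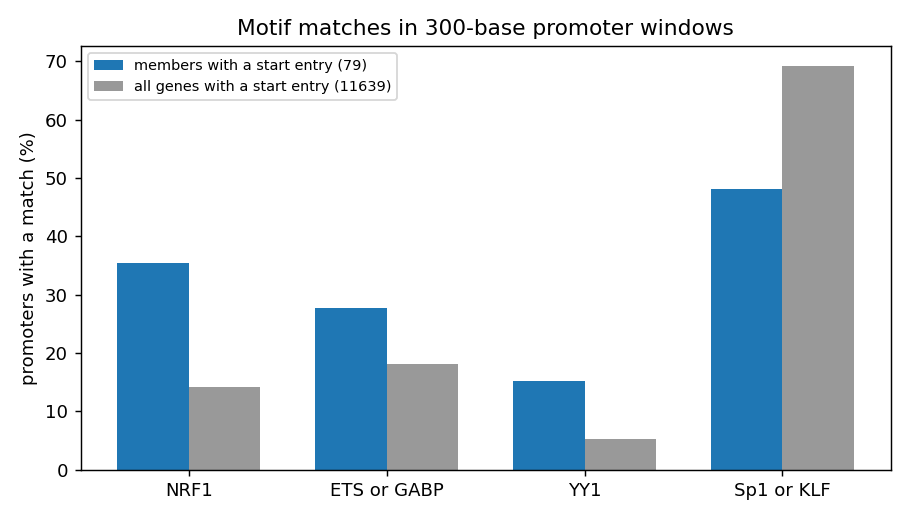
Share of promoter windows of 300 bases with at least 1 match to each motif (vertical axis, percent), for 79 members with a start entry (blue) and 11639 protein-coding genes with a start entry (grey). The blue bar is higher for NRF1 (35.4% against 14.2%), ETS and YY1 and lower for Sp1 (48.1% against 69.2%).

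The motifs were also described by where they lay and by which complexes held them. NRF1 letters were found in the promoters of 9 of 15 complex V genes, 3 of 5 in complex III and 2 of 3 in complex II. They were found at 4 of 11 assembly factors and 9 of 35 complex I genes. Complex IV had them at 1 of 13 genes (Cox6a1), or 7.69%, near the 9.68% of all promoters (14.2% of those with a start entry). ETS letters were found at 6 of 15 complex V genes, 5 of 11 assembly factors and 2 of 3 complex II genes. Complexes III and IV had them at 2 of 5 and 3 of 13 genes. In complex I they were found at 4 of 35 genes, or 11.4%, near the 12.9% of all promoters (18.2% of those with a start entry). YY1 letters were found at 7 complex I genes, 3 complex V genes and 2 assembly factors, and at no gene of complexes II to IV. Only 3.64% of all promoters (5.22% of those with a start entry) held YY1 letters, so their absence from classes this small says little. Sp1 letters were found at 10 of 11 assembly factors and at none of the 5 complex III promoters, against 49.2% of all promoters. Among genes with a start entry, as all genes of these classes are, the share was 69.2%. The NRF1 matches lay at a median of 39 bp from the summit of the strongest start entry, and the YY1 matches at 117 bp. Of the 12 YY1 matches, 8 lay downstream of the start. When only the bases before the start were searched, YY1 letters remained at 4 of these 12 members. Over all genes with a start entry they remained at 257 of 608. Most genes with YY1 letters thus lost them in both groups, and the position was not particular to members. Every match at members with a start entry lay inside the interval of that entry. Among members, the median was 9.13-fold with NRF1 letters and 8.95-fold without. The corresponding medians were 8.73 and 9.26-fold for ETS letters, 8.73 and 9.14-fold for YY1 letters and 9.84 and 8.78-fold for Sp1 letters. Over all genes with a start entry, they were 9.36 and 8.25-fold for NRF1 and 9.31 and 8.21-fold for ETS. For YY1 they were 9.02 and 8.43-fold and for Sp1 8.75 and 7.58-fold. The order for ETS and YY1 letters was thus opposite in members, and no difference was tested.

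Some promoters, 8 in all, were chosen to show these patterns, written 5′ to 3′ on the gene's strand and ending at the base before the annotated start, with motif matches in capitals. Where a neighbouring gene starts upstream, the sequence stops short of that start. Sdha (chr13:74350241-74350316, minus strand), Ndufa8 (chr2:36049339-36049472, minus strand) and Ndufb4 (chr16:37654369-37654508, minus strand) are shown because each holds NRF1 letters (GCGCNTGCG or its reverse complement) more than once. Ndufa8 and Ndufb4 also hold Sp1 letters (GGGCGG or its reverse complement). Atp5h (chr11:115419920-115420059, minus strand) is shown because it holds both NRF1 and ETS letters (CCGGAAG or its reverse complement). Uqcr11 (chr10:80406822-80406961, minus strand) holds ETS letters, and its NRF1 match begins at position −5 and runs past the start, so it is not in capitals here.
Sdha: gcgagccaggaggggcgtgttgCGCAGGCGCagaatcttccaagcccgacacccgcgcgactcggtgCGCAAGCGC
Ndufa8: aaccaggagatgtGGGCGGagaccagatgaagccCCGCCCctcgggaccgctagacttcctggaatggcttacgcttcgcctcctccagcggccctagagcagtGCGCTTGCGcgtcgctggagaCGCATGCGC
Ndufb4: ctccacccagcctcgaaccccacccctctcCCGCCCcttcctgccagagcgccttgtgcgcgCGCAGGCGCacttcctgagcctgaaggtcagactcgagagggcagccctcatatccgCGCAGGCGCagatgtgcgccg
Atp5h: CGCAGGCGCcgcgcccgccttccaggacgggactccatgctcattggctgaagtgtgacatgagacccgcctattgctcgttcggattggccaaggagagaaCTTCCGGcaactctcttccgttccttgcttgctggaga
Uqcr11: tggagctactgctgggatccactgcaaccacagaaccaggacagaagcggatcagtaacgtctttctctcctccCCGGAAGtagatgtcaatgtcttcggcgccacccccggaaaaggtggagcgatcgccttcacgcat

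Cox8a (chr19:7217617-7217756, minus strand), Cox8b (chr7:140900447-140900586, minus strand) and Cox7b (chrX:106015560-106015699, plus strand) are shown as a contrast in CpG dinucleotides, and none of these stretches holds a whole motif. An ETS match of Cox8a begins at position −5 and runs past the start. Cox8a had a start entry of 8.68-fold and 114 reads, Cox7b the weakest of all members and Cox8b none.
Cox8a: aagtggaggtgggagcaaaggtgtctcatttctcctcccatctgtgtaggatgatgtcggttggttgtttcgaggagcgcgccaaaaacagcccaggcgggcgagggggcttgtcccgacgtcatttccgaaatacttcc
Cox8b: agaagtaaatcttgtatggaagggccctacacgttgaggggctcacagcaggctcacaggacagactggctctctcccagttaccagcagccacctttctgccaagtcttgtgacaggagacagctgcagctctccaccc
Cox7b: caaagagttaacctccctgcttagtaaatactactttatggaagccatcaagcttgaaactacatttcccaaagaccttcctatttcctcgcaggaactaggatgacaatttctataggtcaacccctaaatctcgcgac

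These stretches hold 9 CpG in Cox8a, 1 in Cox8b and 3 in Cox7b. Over whole promoter windows, the 79 members with a start entry had a median of 20 CpG, and 4 of them had 10 or fewer (Cox7b with 5, Cox7a1 with 7, Ndufc2 with 8 and Cox6b2 with 10). The 3 members without a start entry and with a promoter window had 2 (Cox8b), 5 (Ndufb4b) and 10 (Cox7b2). Over all protein-coding genes, 15.5% of promoters with a start entry and 95.8% of those without had 10 or fewer. A TATAAA match on the gene's strand was found in 3 of 82 member promoters (3.66%, in Cox8b, Ndufa3 and Ndufs7), compared with 9.82% of all promoters. Among those with a start entry, the shares were 2.53% and 5.64%.

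Summits lay close to the annotated start. Among 79 members with a strand and a start entry, the summit of the strongest one was a median of 35 bp from the start, on either side, compared with 95 bp over 11639 genes. It was within 50 bp at 45 members (57.0% against 30.4%) and within 100 bp at 58 (73.4% against 51.9%). The signed median was −9 bp, that is upstream. Only Ndufa11, at −663 bp, and Uqcrh, at −528 bp, had it more than 500 bp away, and in both it lay nearer to the start of a neighbouring gene (Vmac and Lrrc41).

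**Figure D3:**
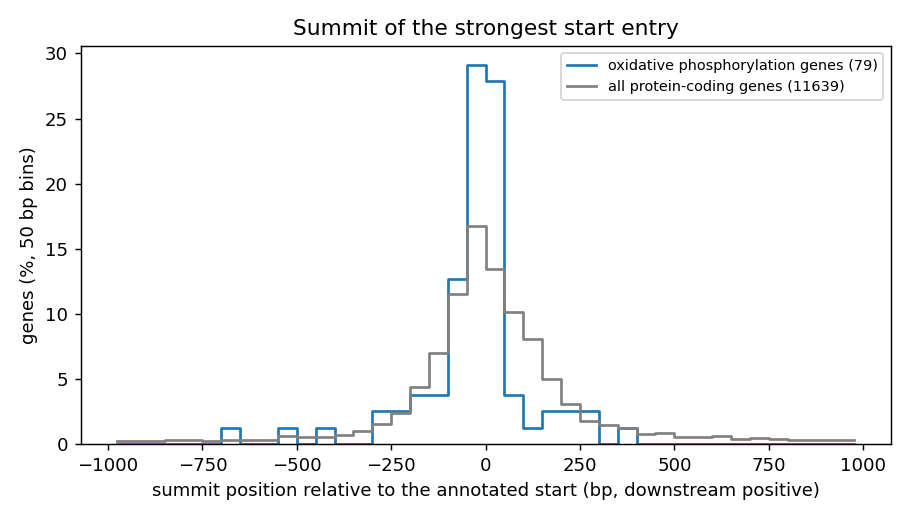
Position of the summit of the strongest start entry relative to the annotated start (horizontal axis, bp, downstream positive) as the share of genes per 50 bp (vertical axis). The line for 79 members is higher than that for 11639 genes next to 0, where 57.0% of members and 30.4% of genes lay within 50 bp.

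Shared promoters were common. A divergent protein-coding gene started within 1 kb upstream of 23 of 82 members (28.0%), against 8.48% of genes with a strand and 12.5% of those that also had a start entry. The distance between the starts ran from 10 bp (Ndufa7 and Rps28, a ribosomal protein gene) to 454 bp (Ndufa5 and Asb15), and no partner was another member. Atp5j, a stalk subunit of the ATP synthase, starts 148 bp from Gabpa, which encodes the DNA-binding subunit of GABP. They shared the entry with the most reads of any member, 227 reads at 9.78-fold (8.55 to 11.1). Other partners included Timm8b for Sdhd and Mrpl47 for Ndufb5, both genes of mitochondrial proteins. Members with a divergent partner had a median of 9.26-fold and 139 reads, and those without had 8.96-fold and 109 reads. At 15 members the strongest entry lay nearer to a start of another gene than to the member's own. Leaving out entries nearer to another start reduced the members with a start entry from 93 to 85, and all genes to 63.8%.

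Complex I, the largest complex of the chain, had a start entry at 38 of 41 genes and a median of 8.99-fold, with values from 3.27 to 13.7-fold. Ndufa8, whose promoter is printed above, led with 13.67-fold and 145 reads (11.55 to 16.07). Ndufa12 followed with 12.96-fold, and Ndufab1, the mitochondrial acyl carrier protein, with 12.54-fold. The counting intervals of these 3 genes overlapped. The core subunits that carry the flavin and the iron-sulphur clusters had a median of 8.72-fold and the accessory ones 8.99-fold. Among the core subunits, Ndufv2 had 10.84-fold and 180 reads, the most reads of complex I. Ndufv1, which binds the flavin, had 9.76-fold, Ndufs8 9.32-fold, Ndufs3 8.13-fold and Ndufs7 7.6-fold. Ndufs1 had 5.55-fold (4.46 to 6.83), at an entry 30 bp from the start of Eef1b2.

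Ndufa4l2 had 3.27-fold (2.6 to 4.06) with 80 reads over the highest background of any member, 23.8 reads. Ndufb10 had 3.77-fold (2.93 to 4.77) with 67 reads. These were the lowest folds of complex I, and Ndufs1 came next. Ndufb4b and Ndufb4c, short copies of Ndufb4 with spans of 471 and 485 bp, had no entry at all, whereas Ndufb4 had 9.03-fold and 108 reads. The X-linked genes Ndufb11 and Ndufa1 had 8.79-fold and 6.75-fold. The remaining complex I genes with a start entry lay between 5.82-fold (Ndufs6) and 11.72-fold (Ndufb1).

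Complex II, succinate dehydrogenase, is also an enzyme of the citric acid cycle and had a start entry at all 4 genes. Sdha, the flavoprotein subunit, had 14.11-fold and 143 reads (11.9 to 16.6), the highest fold of any structural subunit. The promoter printed above lies between Sdha and Ccdc127, whose starts are 77 bp apart. Sdhb, the iron-sulphur subunit, had as many reads, 143, over a higher background of 15.6 reads, which gave 8.68-fold (7.32 to 10.2). The membrane anchors Sdhc and Sdhd had 10.89 and 9.12-fold. The summits of Sdha and Sdhb thus differed in background and not in reads.

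Complex III had a start entry at all 8 genes and a median of 8.24-fold. Uqcrfs1, the Rieske iron-sulphur protein, had 13.8-fold and 170 reads (11.8 to 16.0). Uqcrb followed with 11.53-fold and the core protein Uqcrc2 with 10.24-fold. The other core protein, Uqcrc1, had 9.14-fold, with overlapping intervals. Small subunits filled the lower end, with Uqcr11 at 4.83-fold (3.78 to 6.1), Uqcr10 at 5.91-fold and the hinge protein Uqcrh at 6.61-fold. Uqcrq had 7.33-fold. The entries of Uqcr10 and Uqcrh lay nearer to the starts of Zmat5 and Lrrc41. Reads did not follow this order, since Uqcrh had 139 reads over a background of 20.2 and Uqcrb 92 over 7.06.

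**Figure D4:**
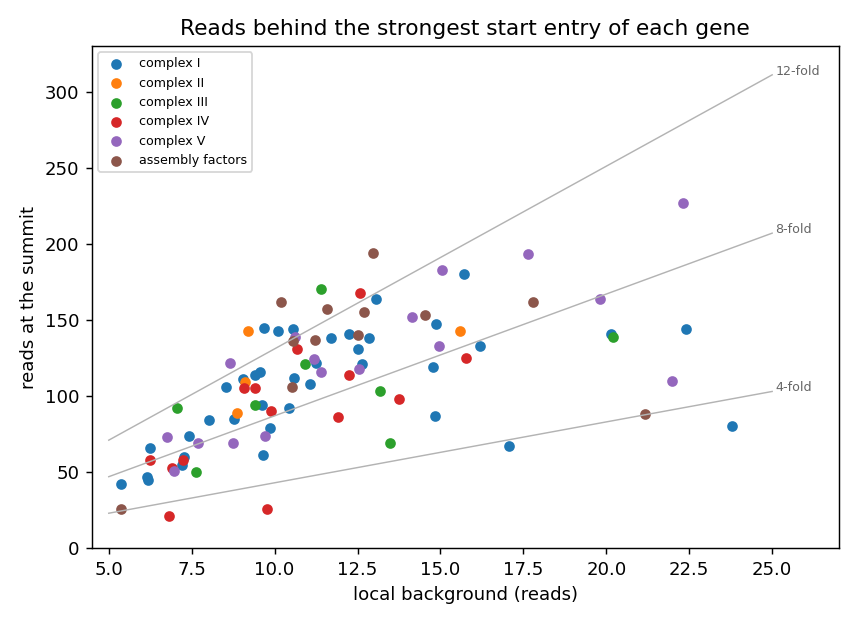
Reads at the summit (vertical axis) against the local background (horizontal axis, reads) of the strongest start entry of 93 members, colored by class, with grey lines of equal fold. Background ran from 5.37 to 23.8 reads, and Sdha and Sdhb, with 143 reads each, stand at 14.11 and 8.68-fold.

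Complex V had a start entry at all 17 genes and a median of 9.44-fold. The interval of 1 gene lay wholly below the all-gene median. This gene was Atp5d, the delta subunit of the catalytic part (F1), with 4.83-fold (3.98 to 5.81) and 110 reads over a background of 22.0. The other subunits of this part were higher, with 12.07-fold at Atp5e, 10.4 at Atp5b, 10.26 at Atp5a1 and 10.11 at Atp5c1. Atp5b, the catalytic beta subunit, had 193 reads. The entry counted for Atp5a1 lay inside the gene, 312 bp from the gene end of lower coordinate and 195 bp from an end of Haus1. Atp5g1, Atp5g2 and Atp5g3 all encode the c subunit of the rotor. They had 11.47-fold (9.87 to 13.2), 7.92-fold (6.76 to 9.23) and 7.18-fold (5.61 to 9.07), so the interval of Atp5g1 did not overlap those of the other 2. The stalk subunits Atp5o, Atp5h, Atp5pb and Atp5j had 8.4 to 9.78-fold. Atp5md, a small membrane subunit, had the highest fold of the complex, 12.74 (10.6 to 15.2), at an entry nearer to Pdcd11, whose start is 119 bp away. Atp5l and Atp5j2, membrane subunits as well, had 6.54 and 7.0-fold, and Atp5k and Atp5mpl 8.06 and 9.55-fold.

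Complex IV, cytochrome c oxidase, had a start entry at 14 of 18 genes (77.8%, 95% exact binomial interval 52.4 to 93.6%) and a median of 7.83-fold. Cox7a2 had 12.45-fold and 168 reads, Cox7c 11.3-fold, Cox5b 10.53-fold and Cox5a 10.17-fold. Cox6c, Cox7a2l (a factor of supercomplex formation), Cox6b1, Cox6a1 and Cox4i1 lay between 6.71 and 8.14-fold, and the entry of Cox4i1 was nearer to Emc8. The genes without a start entry were Cox6a2, Cox8b, Cox8c and Cox7b2, all of them isoforms of restricted tissues.

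Paired isoforms were therefore set side by side. Several subunits exist as a widespread gene and as a copy known mainly from heart and skeletal muscle (Cox6a2, Cox7a1, Cox8b), testis (Cox6b2, Cox7b2, Cox8c), lung (Cox4i2) or low oxygen (Ndufa4l2). Ndufa4 and Ndufa4l2 carry complex I names, and the Ndufa4 protein is found in complex IV. All 7 widespread genes had a start entry, and 4 of 8 restricted genes had one. The share was 66.6% over all protein-coding genes and 50.5% among those no longer than 12999 bp. The count of restricted genes is thus near the share of short genes. In 3 of the 8 pairs the widespread gene was higher with separate counting intervals. Cox4i1 had 6.71-fold (5.46 to 8.16) and Cox4i2 2.82-fold (1.79 to 4.24) with 21 reads. Cox7a2 had 12.45-fold (10.65 to 14.47) and Cox7a1 7.17-fold (5.48 to 9.24) with 58 reads. Ndufa4 had 10.72-fold (9.03 to 12.6) and Ndufa4l2 3.27-fold. Cox4i1, Cox4i2 and Ndufa4l2 are among the genes for which either end was used. Thus 1 muscle isoform, Cox7a1, had a start entry of middle strength, 35 bp upstream of its start, while Cox6a2 and Cox8b had none.

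The testis isoform Cox6b2 broke the order, with 8.35-fold (6.73 to 10.2) and 90 reads compared with 6.84-fold (5.16 to 8.91) and 53 reads at Cox6b1, and these intervals overlapped. Cox7b, the widespread X-linked gene, had the lowest fold of all members, 2.51 (1.67 to 3.63) with 26 reads over a background of 9.76. Its summit lay 1 bp from the annotated start, and the cause of the low fold was not tested. The other X-linked members, Ndufa1 and Ndufb11, had intervals of 4.91 to 9.07 and 7.04 to 10.8, above that of Cox7b. Cox7b2 had no start entry and 1 entry of 5.03-fold and 31 reads deep inside its span of 105383 bp. A gene without an entry is below the limit of the caller, whose smallest pileup was 11 reads, and is not shown to be closed.

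**Figure D5:**
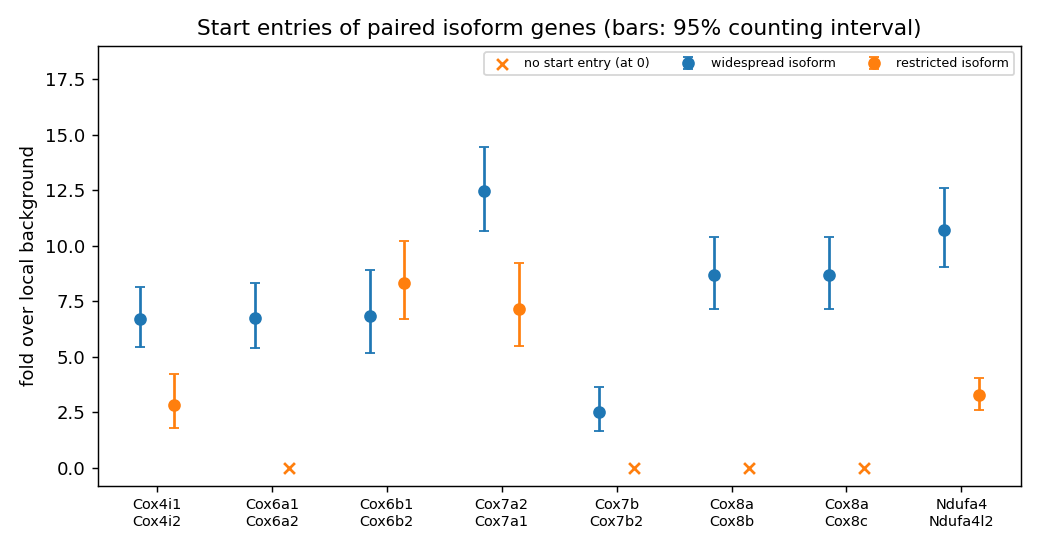
Fold over local background (vertical axis) of the strongest start entry for 8 pairs of a widespread (blue) and a tissue-restricted isoform gene (orange), with 95% counting intervals as bars, and crosses at 0 for genes without a start entry. The restricted gene was lower or without an entry in 7 of 8 pairs, and in the pair Cox6b1 and Cox6b2 the intervals overlapped.

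Assembly factors, which help to build complexes I and II and are not part of them, had a start entry at 12 of 12 genes and the highest class median, 10.9-fold with 146.5 reads. Ndufaf6 had 14.56-fold (12.4 to 17.0), the highest value of all members, and Ndufaf7, a methyltransferase that acts on a complex I subunit, 13.95-fold and 194 reads. Sdhaf1 had 12.56-fold and Sdhaf4 11.86-fold. The exceptions were Ndufaf3 with 4.02-fold (3.23 to 4.94) over a background of 21.2 reads and Ndufaf1 with 4.24-fold (2.83 to 6.14) and 26 reads. Ndufaf8 followed with 8.67-fold, and the other factors lay between 9.3-fold (Sdhaf2) and 11.4-fold (Ndufaf5). Of the 12 genes, 8 lay wholly above the all-gene median and 2 wholly below it.

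The members held 204 entries in 136 intervals, of which 161 were start entries and 43 were not. The start entries had a median of 7.0-fold and 84 reads, and the others 2.67-fold and 22 reads. Exactly 1 start entry was found at 45 members, and 48 had 2 to 4. An entry away from the start was found at 22 of 100 members, against 48.1% of all protein-coding genes, which are longer. Among genes no longer than 12999 bp, it was found at 11 of 75 members and at 22.0% of all genes. The 4 members longer than 50 kb (Ndufaf2, Ndufs4, Sdhaf3 and Cox7b2) held 20 of the 204 entries. Ndufs4, an accessory subunit of complex I, had 8 entries along its span of 100300 bp, of which 7 lay away from the start, and the strongest of these had 7.85-fold and 51 reads, 68085 bp from the start. Ndufaf2 also had 8, but its 5 entries away from the start reached no more than 2.67-fold. Sdhaf3 had 1 of 8.33-fold and 52 reads, 33292 bp from its start. Ndufa13 had 7, of which 1 of 6.25-fold lay 1207 bp upstream of its start and nearer to Tssk6. Ndufa4l2 had 6, and Ndufaf6 and Sdhaf2 had 5 each. Of the 43 entries, that of 10.57-fold and 195 reads in the window of Ndufb6 lay 5 bp from the start of Topors.

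The window of 1 kb around the gene span was met closely by few entries. Those just inside were at 924 bp beyond Uqcrh (1.96-fold, 12 reads) and 856 bp beyond Uqcr10 (2.55-fold, 21 reads). Those just outside were at 1023 bp beyond Atp5g2 (2.66-fold, 55 reads) and 1028 bp beyond Ndufa11 (3.51-fold, 73 reads).

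Other genes of the pathway and of metabolism were set beside the members. Of 31 genes for cytochromes c and c1, assembly factors outside the prefixes and the ATP synthase inhibitor, 30 had a start entry, with a median of 9.32-fold. Cycs, the cytochrome c of most tissues, had 14.2-fold and 196 reads, whereas Cyct, its testis form, had no entry. Cyc1, the cytochrome subunit of complex III, had 7.15-fold. All 12 genes of the citric acid cycle had one, with a median of 8.94-fold, led by Fh1 (fumarase) with 13.8-fold and 268 reads. All 17 genes of glycolysis had one, with a median of 8.04-fold, and 1 of these was at 10-fold or more (Ldhb, 10.6-fold). Of 13 regulators, 12 had one, among them Nrf1 with 10.9-fold, Gabpa with the entry shared with Atp5j, Yy1 with 6.01-fold and Tfam, which packages mitochondrial DNA, with 12.1-fold. Ppargc1a, a coactivator of mitochondrial genes, had no start entry and 32 entries within its span window. The lists overlap in range, and no difference between them was tested.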

How the data were processed

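ATAC-seq, in which Tn5 transposase cuts and tags open chromatin, was run on 2 libraries with 8 to 9 PCR cycles and paired reads of 75 nt, per the labels' protocols. The authors deposited 1 pooled peak list. The submitters' processing notes name the build mm10 and the tools MACS2 2.2.7.1, SAMtools 1.7.2, BWA 0.7.1.7, cutadapt 0.6.2 and Trim Galore. Not given in the sources used here are the settings, any Tn5 shift, how duplicates were handled and what was filtered. Each of 138387 deposited entries holds a summit, a fold (a ratio to local background), a −log10 p-value, a −log10 q-value and a score. The score, as deposited, is the truncated −log10 p multiplied by 10 (true of 99.999% of entries), and it entered no result.

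Reads and background were solved from the fold, taken as (reads + 1)/(background + 1), and the Poisson tail. For 99.96% of entries the solved reads were whole to within 0.01, and in simulated data 5000 of 5000 pileups were recovered. A pileup counts the reads or fragments covering the summit base, and the depth of the libraries is unknown. The smallest pileup was 11 reads, the median 24 and the lowest background 5.37. PCR duplicates may remain, so intervals cover counting error only. Genes and promoter sequences are from RefSeq tables of GRCm38.p6, the assembly of mm10, and coordinates count from 1. Python 3.11.15, numpy 2.4.6, pandas 2.3.3 and scipy 1.17.1 were used.

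The members, lists, motifs and settings were chosen with earlier results of these data known. Named were, per class, the 3 highest and 3 lowest members, those without a start entry, isoform pairs, genes sharing an entry and those with most entries. Other named members, the genes with 10 or fewer CpG or with TATAAA, and the 8 printed promoters were chosen after their values were seen. The values of 1 member are not reported here.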

Additional observations from a re-analysis of the deposited data

Results flagged for a closer look

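Signal was present on the mitochondrial chromosome, which the description of nuclear genes does not use. It held 36 entries in 3 intervals, with folds of 1.14 to 2.37. Their pileups were 10898 to 20939 reads and their local background 6867 to 11030. Of the 13 protein-coding genes of this chromosome, all of which encode subunits of complexes I, III, IV and V, 6 held a summit (ND1, ND2, COX1, ND4, ND5 and CYTB). The highest fold among them was 2.33, at CYTB. Cells hold many copies of this DNA, and reads on it cannot be set against those at nuclear genes.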

How the results depend on the processing

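Counts, medians, summit positions and motif shares were recomputed under 44 alternatives, 5 of them chosen after seeing the data. The share of promoters with NRF1 letters was 22.0% of members (7.99% of all genes) when only the 250 bases before the start were searched, and that with YY1 letters 4.88% (1.56% of all genes), since the alternative removes matches after the start. The other 42 stayed within 1.5 times for counts and within the interval of the main value otherwise. For the count of members with a start entry, the alternatives that left out a class of members were too small a change to leave this range. A start entry was found at 91 members with the upper 50% of entries, and its median fold ran from 8.95 without assembly factors to 9.26 without restricted isoforms and the Ndufb4 copies. No replicate could be left out, and no paired analysis was possible because the list pools both replicates of 1 group.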
